A study of Mus musculus with 2 samples.

Results

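Metallothioneins, ferritin and the main routes of iron in and out of a cell were followed through 6 genes, Mt1, Mt2, Ftl1, Fth1, Slc40a1 and Tfrc, matched by symbol among the 34244 genes of the deposited lists, and all 6 were found. Their raw counts of unique molecular identifiers (UMIs, each tagging 1 captured RNA molecule) were described over cell types gated by marker genes in the livers of 2 C57/BL6 mice. The Control mouse had peanut oil and the PCB126 mouse had the dioxin-like polychlorinated biphenyl PCB126 in a dose given as 20 µg/kg/day. The labels call the Control mouse untreated, although their protocol gives it the vehicle, and the protocol speaks of a single gavage while stating the dose per day. In both groups the exposure lasted 5 weeks, a 12 h fast came before sampling, and the age label reads postnatal day 21. Centrifugation and a strainer of 30 µm took out hepatocytes and lysis took out red cells, and the nonparenchymal cells left were measured by 3′ single-cell RNA sequencing. With 1 library per group there was no replicate, no test between groups was made, and the mouse cannot be told apart from the treatment. Every interval below is an exact 95% interval for counting error only. A limit given for a count of 0 is 3 counts of the total, followed by the upper end of the exact interval.

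Metallothioneins are small cysteine-rich proteins that bind zinc, copper and cadmium, and their genes are induced by metals through the factor MTF1 and by glucocorticoids and oxidants. Ferritin is a hollow shell built of heavy chains (Fth1), which oxidise iron, and light chains (Ftl1), which help to lay it down as mineral. Slc40a1 encodes ferroportin, the only known iron exporter, and Tfrc encodes the transferrin receptor, the main entry of iron bound to transferrin. Iron regulatory proteins bind hairpins called iron-responsive elements in the mRNAs of the ferritins, ferroportin and the transferrin receptor. In the liver, Kupffer cells and other macrophages return iron from red cells, and the sinusoidal endothelium makes the bone morphogenetic proteins that drive hepcidin in hepatocytes.

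The iron-responsive elements are shown because they are what these iron genes have in common in sequence. A search of GENCODE M21 transcripts (build GRCm38) for a bulged C, a stem of 5 pairs and the loop CAGTG followed by A, C or T found 1 match in the 5′ untranslated region of each ferritin gene and of Slc40a1, and 4 in the 3′ untranslated region of Tfrc. Such a match occurred in the 5′ untranslated region of 23 of 20580 genes (0.112%) and in the 3′ untranslated region of 100 of 20978 (0.477%). Each line gives 29 bases, 5′ to 3′ on the mRNA strand, with the loop of 6 bases in capitals. A match describes letters and does not show that a protein was bound.
Fth1, 5′ untranslated region, chr19:9982732-9982760, plus strand: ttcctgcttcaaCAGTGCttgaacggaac
Ftl1, 5′ untranslated region, chr7:45459779-45459807, minus strand: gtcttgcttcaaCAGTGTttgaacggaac
Slc40a1, 5′ untranslated region, chr1:45925465-45925493, minus strand: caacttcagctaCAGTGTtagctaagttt
Tfrc, 3′ untranslated region, chr16:32631219-32631247, plus strand: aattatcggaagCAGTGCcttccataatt
Tfrc, 3′ untranslated region, chr16:32631598-32631626, plus strand: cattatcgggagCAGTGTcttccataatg
Tfrc, 3′ untranslated region, chr16:32631663-32631691, plus strand: ctatatcggagaCAGTGAtctccatatgt
Tfrc, 3′ untranslated region, chr16:32631710-32631738, plus strand: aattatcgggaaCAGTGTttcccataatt

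Mt1 and Mt2 lie on the plus strand of chromosome 8, with starts 6418 bases apart, and their ratios below were in the same direction. Matches to the metal response element, the motif that MTF1 binds, are shown as a feature of their sequence. A match describes letters and does not show that MTF1 was bound, and its part in the ratios was not tested. The RefSeq promoter table (GRCm38.p6, 250 bases before to 50 after each start) was searched for TGCACNC and TGCGCNC on both strands. The Mt1 window held 3 matches and the Mt2 window 4. Counted from the RefSeq start base, the Mt1 matches began at -23, 2 and 20, and the Mt2 matches at -223, -128, -50 and 4. GENCODE M21 starts the genes at other bases, chr8:94179082 for Mt1 and chr8:94172664 for Mt2, so these positions depend on the annotation. At least 1 match stood in 25.7% of all 32851 windows of 300 bases. Capitals mark the motif, which in the last pair of Mt2 lines is read on the opposite strand.
Mt1, chr8:94179055-94179083: cggtcccgctgTGCACACtggcgctccag
Mt1, chr8:94179080-94179108: ccagggagctcTGCACTCcgcccgaaaag
Mt1, chr8:94179098-94179126: cgcccgaaaagTGCGCTCggctctgccaa
Mt2, chr8:94172384-94172412: agcatcgcctcTGCACCCggcccctcggg
Mt2, chr8:94172479-94172507: cgcagacccttTGCGCTCagctcctttgc
Mt2, chr8:94172557-94172585: ggggggagggcGTGTGCAggctctgtccc
Mt2, chr8:94172611-94172639: gaattcgggtcGTGCGCAggcccaggggc
The core of the site bound by the aryl hydrocarbon receptor, GCGTG, was found 1 time in the Mt1 window and 2 times in the Mt2 window, and in 32.4% of all windows. The antioxidant response core TGACNNNGC was found 1 time in the Mt2 window, did not occur in the Mt1 window, and stood in 12.4% of all windows.

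The Control library held 8550 barcodes with 24134912 UMIs and the PCB126 library 4307 barcodes with 16269562 UMIs. After filters on depth and mitochondrial share and removal of the likeliest doublets, 1858 Control and 1138 PCB126 cells were kept, with medians of 5252.5 and 6567 UMIs and 7.58% and 12.2% mitochondrial UMIs. The 2 libraries shared 3 barcodes, none of them among the kept cells. Classes were rebuilt from marker scores and are named "-like", and 252 Control and 115 PCB126 cells got no class. A gated class is a range of a score: 29 of 150 Control and 43 of 472 PCB126 cells of the class like liver sinusoidal endothelial cells (LSEC-like) lay within 0.5 score units of the next type. In these cells the median LSEC score was 1.45 in Control and 1.57 in PCB126, the median vascular endothelial score was 0.254 and 0.141, and the median plasmacytoid dendritic score was 0.253 and 0.236. The vascular endothelial-like class had 87 Control and 94 PCB126 cells, the neutrophil-like class 595 and 81, and the cholangiocyte-like class 66 and 85, with 19 and 22, 91 and 8, and 0 and 1 cells near the boundary. Ratios are given for these 4 classes, which had at least 50 cells in each library. The macrophage-like class had 6 Control and 34 PCB126 cells and was led by C1q genes, Gpnmb and Trem2, with 6 of its 12 markers detected, so levels in Kupffer cells are not known from these data. The hepatocyte gate caught 16 Control cells and 1 PCB126 cell whose leading genes were mixed, and they are not described. Of the 120 erythroid-like cells of both libraries, 61 fell in an erythroid cluster when cells were grouped by Leiden clustering. The others fell in neutrophil (26), monocyte (14), LSEC (12), dendritic (5) and vascular endothelial (2) clusters, so erythroid-like levels below are those of a mixed class.

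Read as a share of the class (UMIs per 1000000 UMIs of the class, CPM), 4 of the 6 genes were higher in PCB126 than in Control LSEC-like cells: Ftl1, Mt1, Mt2 and Fth1. Here higher or lower means a ratio of at least 1.5 with an interval that leaves out 1. Of the 4785 genes that reached 100 UMIs there, 10.9% were higher and 6.48% lower by the same rule, and the median log2 ratio over these genes was 0.04. In cholangiocyte-like cells none of the 6 was higher and 3 were lower, Mt1, Mt2 and Slc40a1, against 4.67% and 3.16% of 4837 genes and a median log2 ratio of 0.09. In neutrophil-like cells 2 were higher, Slc40a1 and Ftl1, and none was lower, against 13.9% and 9.78% of 2576 genes and a median of 0.10. In vascular endothelial-like cells Ftl1 alone was higher and none was lower, against 4.66% and 9.98% of 2895 genes and a median of -0.07.

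**Figure D1:**
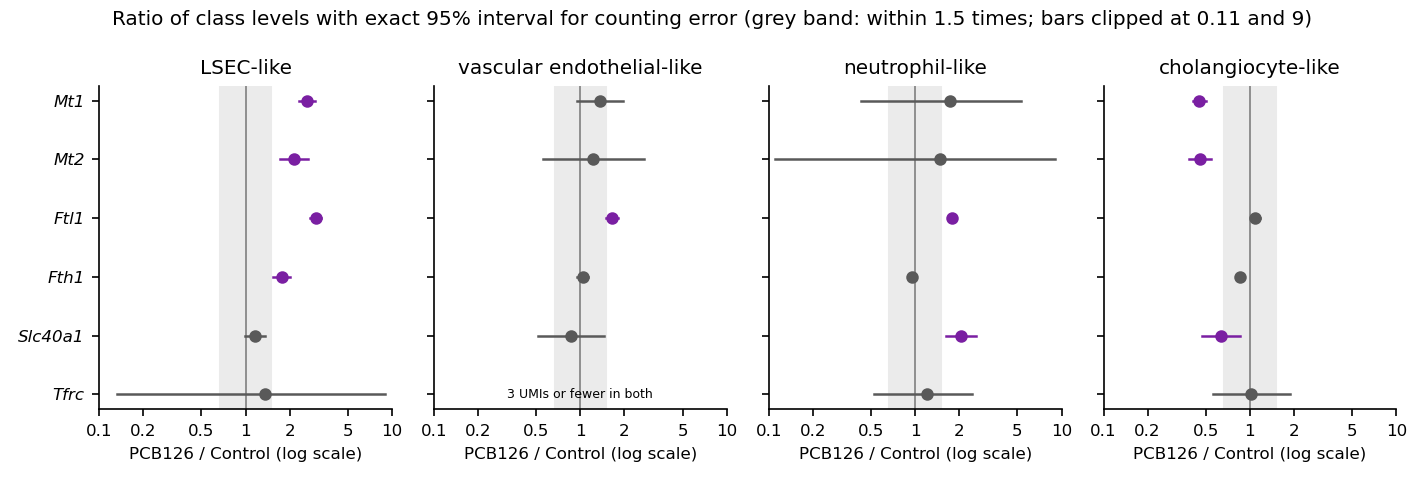
Ratio of the PCB126 to the Control level of each gene in the 4 classes with at least 50 cells per library, on a log axis, with exact 95% intervals for counting error; purple points pass 1.5 times with an interval that leaves out 1. Mt1 and Mt2 stand at 2.63 and 2.14 in LSEC-like cells and at 0.452 and 0.454 in cholangiocyte-like cells.

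Mt1, a metallothionein that buffers zinc and copper, was among the genes with the largest ratios in LSEC-like cells. It had 281 UMIs in Control and 2195 in PCB126, which is 304 and 799 CPM. The PCB126 level was 2.63 times the Control level (2.32 to 2.99, log2 1.39) and ranked 43rd of 4785 genes. The increase was spread over the class: a UMI of Mt1 was seen in 60.0% of Control and 83.7% of PCB126 cells. After thinning each cell to 1000 UMIs, which left out 1 and 3 shallower cells, the shares were 23.5% (16.9 to 31.1) and 45.6% (41.1 to 50.3). The median cell had 1.74 Mt1 UMIs per 10000 in Control and 5.55 in PCB126. At equal median depth (5679.5 and 5662.5 UMIs) the groups overlapped, since 10% of Control cells were above 7.76 per 10000. The 5 highest cells held 22.8% of the Control UMIs and 6.61% of the PCB126 UMIs.

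Free RNA was gauged in cells that should have little metallothionein. In B-like cells a Mt1 UMI was seen in 2 of 21 Control and 2 of 55 PCB126 cells (9.52% and 3.64%, median depths 6813 and 4587), and in no cell after thinning, which allows a share of up to 14.3% and 5.45% (16.1% and 6.49% by the exact interval). In neutrophil-like cells the thinned shares were 0.843% and 2.47%, with median depths of 3763 and 4032. The LSEC-like shares stood above both, which were among the classes with the least Mt1. The part of free RNA in the LSEC-like shares was not tested. The deposited barcodes begin at 534 and 865 UMIs, so droplets shallower than that could not be used. Of the 8550 Control and 4307 PCB126 barcodes, 6252 and 1460 had fewer than 250 genes and were left out. Whether these were empty droplets was not tested. The shallowest 10% of the barcodes served as a stand-in for loose RNA. Mt1 made up 95.6 CPM (70.0 to 127) of that profile in Control and 262 CPM (214 to 318) in PCB126, below the LSEC-like level in each library. Ftl1 made up 567 CPM (502 to 639) and 524 CPM (455 to 600), beside LSEC-like levels of 625 and 1884 CPM, and the Control intervals overlapped. Fth1 made up 578 CPM (512 to 650) and 265 CPM (216 to 320), beside 284 and 501 CPM. In Control the profile thus held more Fth1 than the LSEC-like cells. The part of loose RNA in the ferritin ratios was not tested.

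Mt2, its neighbour with the same binding role, had 98 and 622 UMIs in LSEC-like cells, 106 and 226 CPM. The ratio was 2.14 (1.73 to 2.67, log2 1.09), rank 103 of 4785. Both metallothioneins were therefore higher in the PCB126 cells, and their proportion was nearly the same: Mt1 made up 74.1% (69.4 to 78.5) of the UMIs of the pair in Control and 77.9% (76.3 to 79.4) in PCB126. Across cells of 1 library, Mt1 and Mt2 per 10000 UMIs had a Spearman rho of 0.512 over 150 Control cells and 0.514 over 472 PCB126 cells. These cells share a library and their depths differ, so the values are descriptions.

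LSEC-like cells of the PCB126 library had more mitochondrial UMIs (median 14.9% against 11.04%), and the ratios were taken again within bins of that share. With at most 10% mitochondrial UMIs (56 Control and 63 PCB126 cells) Mt1 was 340 and 826 CPM, a ratio of 2.43 (2.01 to 2.96), and Mt2 had a ratio of 2.48 (1.79 to 3.50). Between 10% and 20% (94 and 409 cells) the ratios were 2.92 (2.45 to 3.51) and 2.22 (1.65 to 3.07). By zone, Mt1 stood at 381 and 937 CPM in pericentral cells (60 and 240 cells) and at 233 and 626 CPM in periportal cells (90 and 232). Both zones showed it: the ratios were 2.46 (2.10 to 2.90) and 2.69 (2.20 to 3.30). The pericentral level was above the periportal one in each library. Hepatocyte, neutrophil, erythroid and macrophage markers were lower in the PCB126 LSEC-like cells: the sums were 343 and 140 CPM for 12 hepatocyte markers, 187 and 22.2 CPM for 12 neutrophil markers, 1226 and 227 CPM for 9 erythroid markers and 15.1 and 8.73 CPM for 12 macrophage markers, with Clec4f and Timd4 at 0 in both libraries. Stellate or fibroblast markers summed to 648 and 503 CPM (4 of 12 seen in each). Cholangiocyte markers summed to 18.4 and 23.7 CPM, with 4 and 7 of 12 seen and Krt19 and Krt7 at 0 in both.

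**Figure D2:**
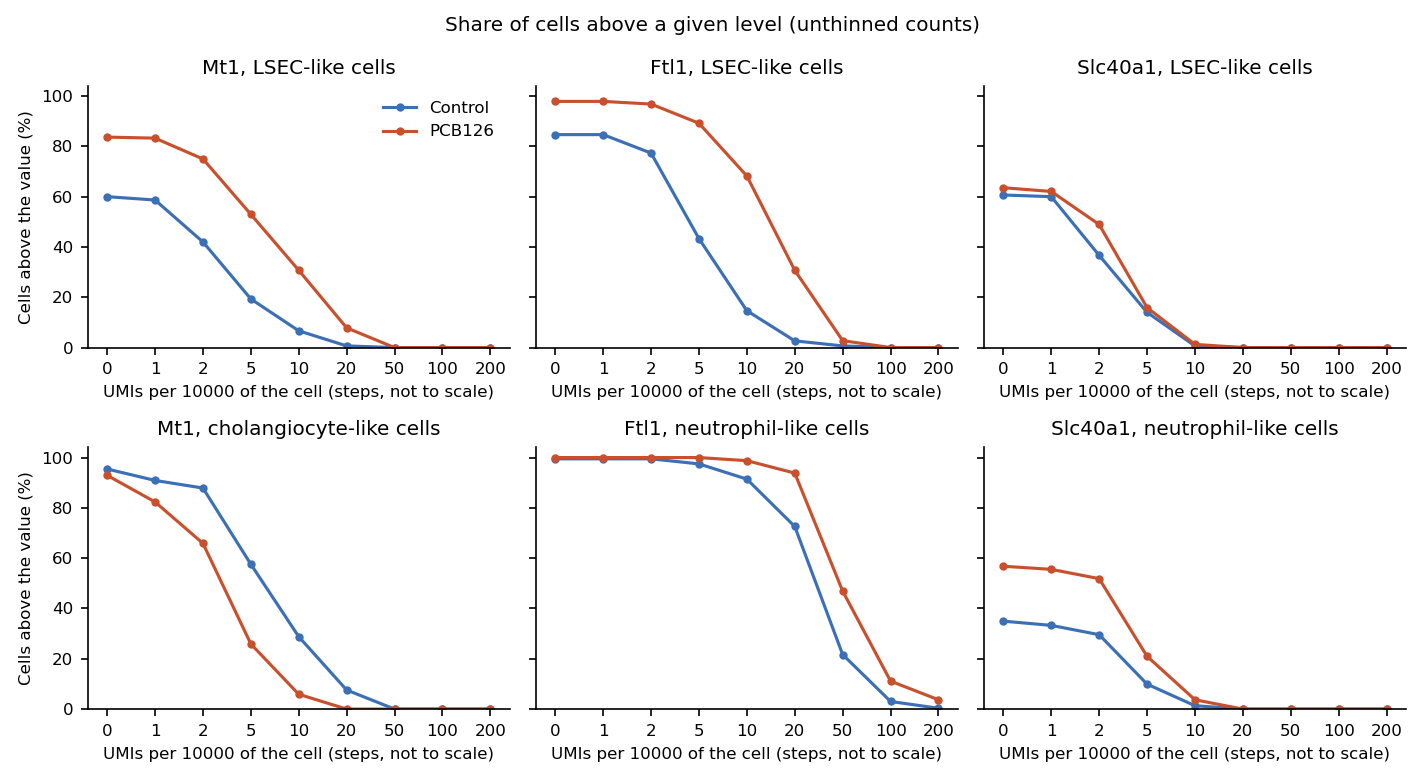
Share of cells (%) above a given level, in UMIs per 10000 of the cell, for Control (blue) and PCB126 (orange), from unthinned counts; the steps of the horizontal axis are not to scale. Above 10 per 10000 lay 6.67% of Control and 30.7% of PCB126 LSEC-like cells for Mt1, 14.7% and 68.2% for Ftl1, and in cholangiocyte-like cells 28.8% and 5.88% for Mt1.

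In cholangiocyte-like cells, the epithelium of the bile ducts, the difference ran the other way. Mt1 had 961 UMIs in Control and 591 in PCB126, 774 and 349.8 CPM. The ratio was 0.452 (0.407 to 0.501, log2 -1.15), which placed Mt1 at rank 4816 of 4837. Mt2 had 354 and 219 UMIs, 285 and 129.6 CPM, a ratio of 0.454 (0.382 to 0.539, log2 -1.14), rank 4815. Both were thus among the genes furthest below 1 in this class. Most cells had a Mt1 UMI in both libraries (95.5% and 92.9% unthinned, 47.0% and 28.2% thinned), and the median cell had 6.16 and 3.01 per 10000. Mt1 was 73.1% of the pair in Control and 73.0% in PCB126, and the 2 genes had a rho of 0.577 over 66 and 0.536 over 85 cells. The 5 highest cells held 27.6% of the Control and 22.8% of the PCB126 UMIs of Mt1.

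Other values differed beside it. Cholangiocyte-like cells were deeper in PCB126 (median 15849 against 12074.5 UMIs). The 12 hepatocyte markers, of which 10 had a UMI in each library, summed to 7108 CPM in Control and 6186 in PCB126, with Cps1 at 0 in both. The median hepatocyte score of the class was 0.976 in Control and 0.738 in PCB126, beside cholangiocyte scores of 3.73 and 3.82. Neutrophil markers summed to 1996 and 1116 CPM (9 and 8 of 12 seen, Cxcr2 and Ly6g at 0 in both). The 9 erythroid markers summed to 3971 and 55.6 CPM, with 6 and 4 of them seen and Slc4a1 and Car1 at 0 in both. The part of these RNAs in the metallothionein ratios was not tested. In the median-of-ratios scaling, in Leiden clusters in place of the gate and in the other alternatives run, 12 in all, Mt1 ranged from -1.40 to -1.13 and Mt2 from -1.70 to -1.01 on the log2 scale.

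Elsewhere the metallothioneins were lower or bare. In Control the order of Mt1 among the described classes of at least 15 cells was cholangiocyte-like 774, LSEC-like 304, plasma-like 142, erythroid-like 134, dendritic-like 102, monocyte-like 77.5, vascular endothelial-like 61.7, T and NK-like 41.1, B-like 9.35 and neutrophil-like 6.43 CPM. From plasma-like cells down, the counting interval of each class overlapped that of its neighbour. In PCB126 the order among classes of at least 15 cells was LSEC-like 799, cholangiocyte-like 349.8, macrophage-like 176, vascular endothelial-like 84.2, dendritic-like 64.9, neutrophil-like 11.2, T and NK-like 10.1 and B-like 9.20 CPM. Intervals overlapped between vascular endothelial-like and dendritic-like cells and among the last 3. Among classes of that size, LSEC-like and cholangiocyte-like cells thus changed places at the top. The smaller Control classes, 7 stellate-like and 6 macrophage-like cells, had 518 and 504 CPM of Mt1, above the Control LSEC-like level. Mt2 in Control had 285 CPM in cholangiocyte-like, 106 in LSEC-like, 28.5 in erythroid-like and 14.9 in vascular endothelial-like cells, the last pair overlapping, and at most 7.15 CPM in the leukocyte classes. Vascular endothelial-like cells, the lining of veins and arteries, had 58 and 74 Mt1 UMIs, a ratio of 1.37 (0.955 to 1.96), and 14 and 16 Mt2 UMIs. That Mt1 ratio passed the fold in 3 of 13 alternatives (log2 0.93 with up to 50% mitochondrial UMIs, 0.59 with Leiden clusters and 0.97 with no gate margin). Neutrophil-like cells had 17 and 4 Mt1 UMIs, and their PCB126 level was 11.2 CPM. LSEC-like RNA at the share of LSEC markers seen there would bring 11.7 CPM, and its part in that level was not tested.

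The balance of the pair was not the same everywhere. The Mt1 share was higher in these leukocyte classes than in LSEC-like or cholangiocyte-like cells: 271 against 25 UMIs in Control monocyte-like cells (91.6% Mt1, 87.8 to 94.5), 73 against 3 and 117 against 2 in Control and PCB126 dendritic-like cells, 191 against 9 in Control plasma-like cells, and 62 against 0 in PCB126 macrophage-like cells. The exact interval for the macrophage-like share begins at 94.2%. Control neutrophil-like cells had 17 against 5 UMIs (77.3%, 54.6 to 92.2), and the 6 PCB126 plasma-like cells 34 against 10. In LSEC-like and cholangiocyte-like cells the Mt1 share lay between 73.0% and 77.9%. In cells of 1 library the pair comes from the same RNA pool, so this contrast does not depend on the class total.

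**Figure D3:**
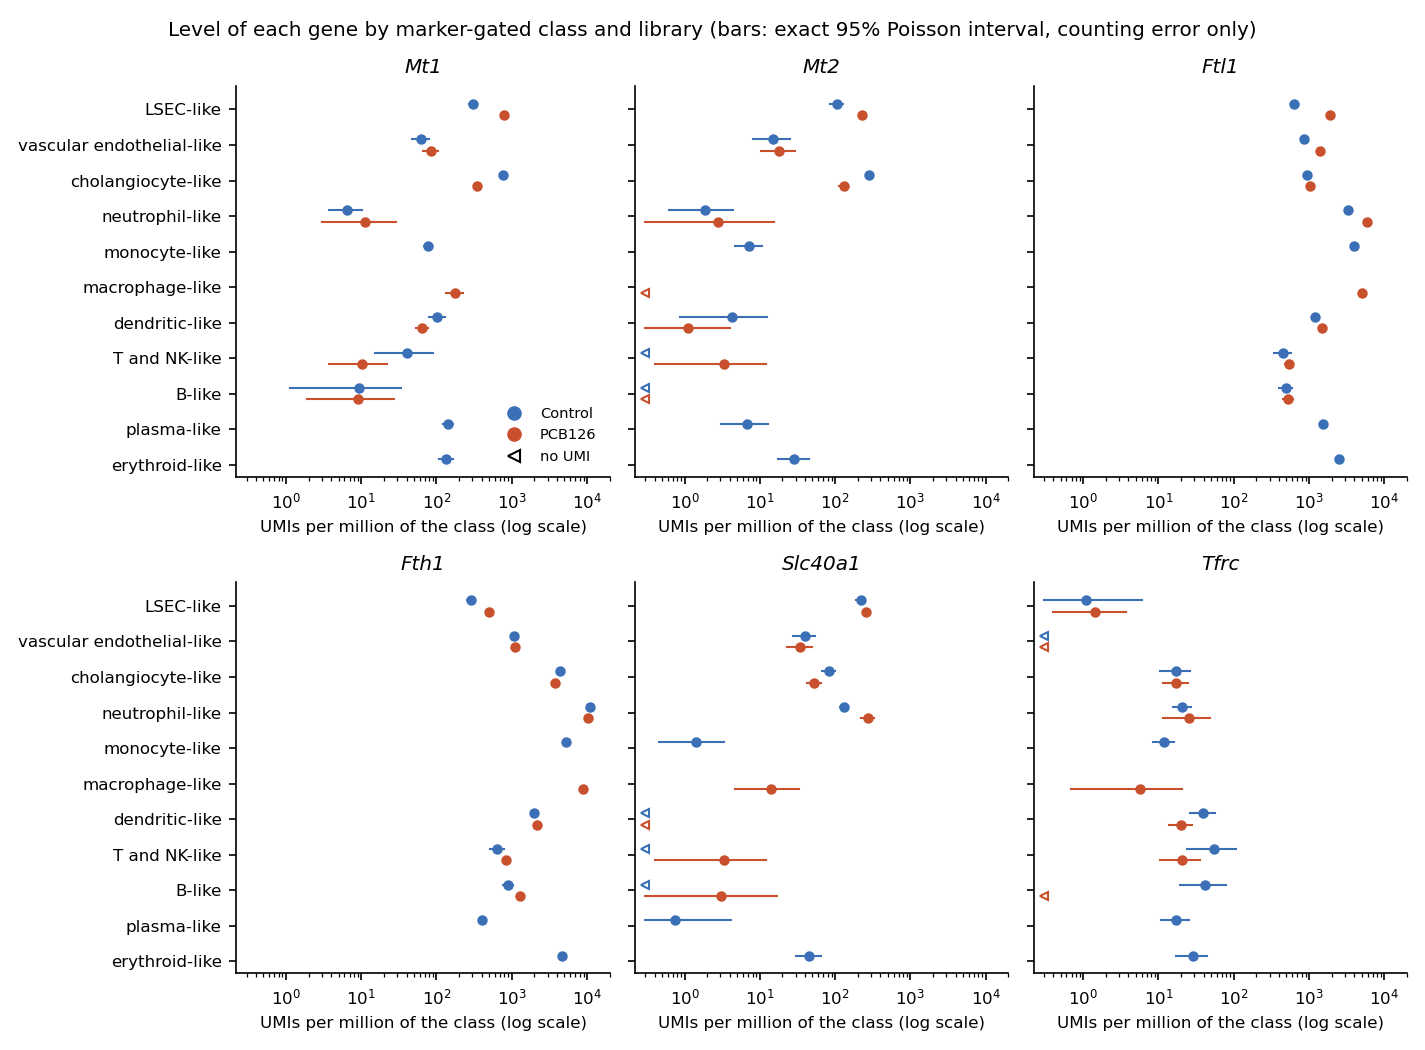
Level of the 6 genes in UMIs per 1000000 of the class, on a log axis, for classes with at least 15 cells in a library, Control in blue and PCB126 in orange, with exact 95% Poisson intervals; open triangles mark a class with no UMI. Mt1 is highest in cholangiocyte-like cells in Control and in LSEC-like cells in PCB126, and Tfrc has no UMI in vascular endothelial-like cells.

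Ftl1, the ferritin light chain, had 579 and 5176 UMIs in LSEC-like cells, 625 and 1884 CPM. The PCB126 level was 3.01 times the Control level (2.76 to 3.29, log2 1.59), the 25th highest ratio of 4785 genes and the largest of the 6 members there. Thinned to equal depth, 37.6% of Control and 76.5% of PCB126 cells had a Ftl1 UMI (84.7% and 97.9% unthinned). The median was 4.29 and 14.5 per 10000, and the highest 10% of Control cells began at 11.6, below the PCB126 median. The ratio was 2.94 (2.59 to 3.34) with at most 10% mitochondrial UMIs and 3.54 (3.11 to 4.03) above, and 2.76 and 3.14 in pericentral and periportal cells. In all 14 alternatives for this class Ftl1 stayed higher, between 1.47 and 1.78 on the log2 scale.

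Ftl1 was also higher in vascular endothelial-like cells, with 801 and 1230 UMIs, 852 and 1399.8 CPM, a ratio of 1.64 (1.502 to 1.80). By subset it was 832 and 1492 CPM in central vein-like cells (55 Control and 71 PCB126 cells; ratio 1.79, 1.61 to 2.00) and 894 and 1095 CPM in arterial or portal-like cells (32 and 23 cells; ratio 1.22, 1.02 to 1.47). With both subsets weighed equally the log2 ratio was 0.57, under the fold used. The class had medians of 6.94% and 11.01% mitochondrial UMIs and erythroid marker sums of 1618 and 42.1 CPM (6 and 4 of 9 seen, Slc4a1 and Car1 at 0 in both), whose part in this ratio was not tested. In neutrophil-like cells Ftl1 had 8767 and 2128 UMIs, 3315 and 5938 CPM, or 1.79 times as much (1.71 to 1.88), and the median cell had 29.6 and 46.6 per 10000. The 12 neutrophil markers, all seen in both, summed to 214671 and 139364 CPM in these cells, and the 9 erythroid markers to 1737 and 511 CPM (6 and 4 seen), and their part in the ratio was not tested. The 5 highest cells held 5.02% of its Control and 23.1% of its PCB126 UMIs. In cholangiocyte-like cells it had 1165 and 1731 UMIs, 939 and 1025 CPM, a ratio of 1.09 (1.01 to 1.18). Thus 3 of the 4 classes had more Ftl1 in PCB126, and the bile duct class was close to 1.

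Ftl1 counts have a limit of their own. Of the 90-base stretches in the last 400 bases of the Ftl1 transcript, 46.6% also occur in 3 other genes, 2 of them in the deposited list. The copy Ftl1-ps1 shares 40.2% of the stretches. It had 281 and 223 UMIs over all cells and 14 and 78 in LSEC-like cells, so reads could have been split or dropped and Ftl1 levels are uncertain to that degree. For Fth1 the shared part was 0.643%, and for the other 4 genes none of the stretches was shared.

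Fth1, the ferritin heavy chain, differed less. In LSEC-like cells it had 263 and 1378 UMIs, 284 and 501 CPM, a ratio of 1.77 (1.55 to 2.02, log2 0.82). Doublet removal decided this value: with doublets kept, the log2 ratio was -0.11. That setting brought 3 more Control cells into the class, which carried 252 Fth1 UMIs between them, nearly as many as the 263 of the other 150 cells, and 709 UMIs of neutrophil markers. The ratio was 1.37 (1.17 to 1.61) in pericentral and 2.59 (2.02 to 3.35) in periportal cells, from Control levels of 431 and 151 CPM and PCB126 levels of 592 and 389 CPM. Neutrophil markers summed to 187 CPM in Control and 22.2 CPM in PCB126 LSEC-like cells (11 and 9 of 12 seen, Ly6g at 0 in Control, and Cxcr2, Mmp8 and Ngp at 0 in PCB126). Their part in the remaining Fth1 ratio was not tested.

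Fth1 was near 1 in the other classes. In vascular endothelial-like cells it had 1058 and 1097 CPM (ratio 1.04, 0.948 to 1.13). In cholangiocyte-like cells it had 4353 and 3725 CPM (0.856, 0.825 to 0.888). In neutrophil-like cells, which had the most Fth1 of the described classes, it had 10995 and 10391 CPM (0.945, 0.913 to 0.978). This near-equality covered unlike subsets: Fth1 was 4845 and 2868 CPM in granule-gene cells (83 Control and 7 PCB126 cells; ratio 0.592, 0.502 to 0.694), 11810 and 8947 CPM in mature cells (262 and 47; 0.758, 0.721 to 0.796), and 14312 and 17613 CPM in cytokine-gene cells (250 and 27; 1.23, 1.17 to 1.29). Ftl1 was above 1 in all 3 subsets, at 1.43, 1.76 and 1.83. In PCB126 a single neutrophil-like cell held 454 of the 3724 Fth1 UMIs (12.2%).

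**Figure D4:**
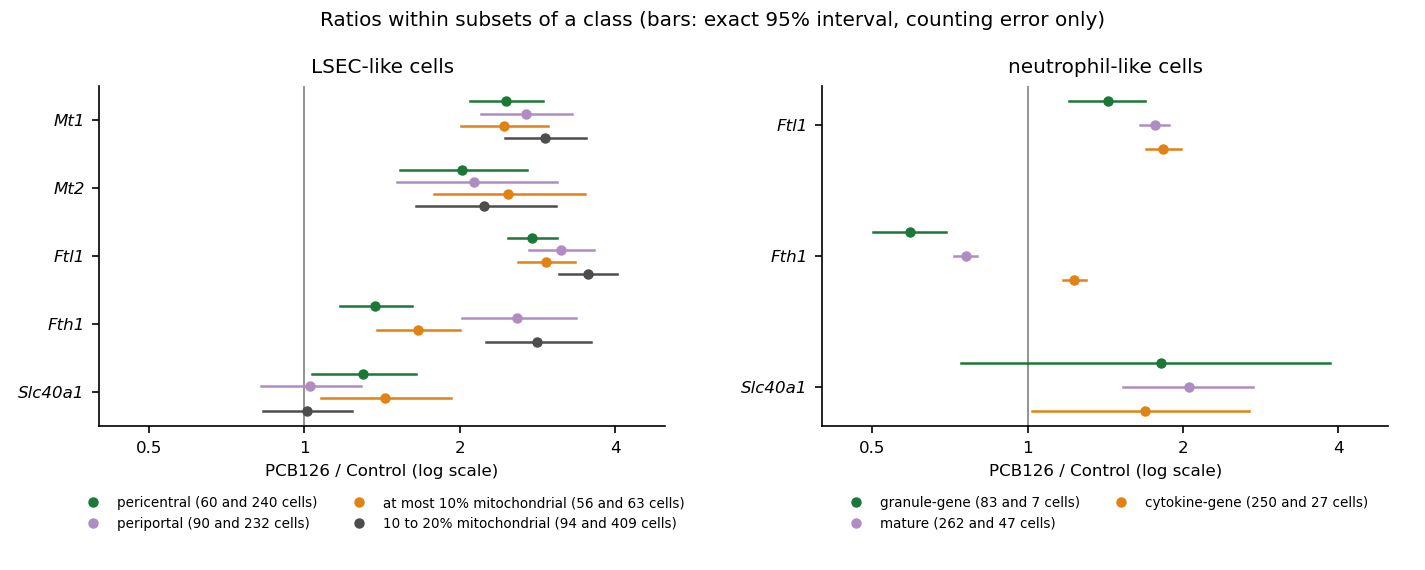
Ratio of PCB126 to Control within zones and mitochondrial bins of LSEC-like cells (left) and within neutrophil-like subsets (right), on a log axis with exact 95% intervals. Mt1, Mt2 and Ftl1 lie above 2 in each LSEC-like subset, while Fth1 lies at 0.592, 0.758 and 1.23 in granule-gene, mature and cytokine-gene neutrophil-like cells.

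The heavy-chain share of ferritin UMIs is a ratio within the same cells. Both genes are counted by 3′ tags, not per length, and Ftl1 carries the limit above, so the share is compared between classes and not read as protein. In LSEC-like cells Fth1 was 31.2% (28.1 to 34.5) of ferritin UMIs in Control and 21.0% (20.0 to 22.0) in PCB126. In vascular endothelial-like cells the share was 55.4% (53.1 to 57.7) and 43.9% (41.9 to 46.0). In neutrophil-like cells it was 76.8% (76.4 to 77.3) and 63.6% (62.4 to 64.9). In cholangiocyte-like cells it was 82.3% (81.3 to 83.2) and 78.4% (77.5 to 79.3). The light chain thus took a larger part in PCB126 in each of the 4 classes. It also did so in the shallow-barcode profile, with 278 Fth1 and 273 Ftl1 UMIs in Control and 105 and 208 in PCB126. The part of loose RNA in these shares was not tested. The class furthest toward the light chain in Control was plasma-like, with a Fth1 share of 20.9% (19.4 to 22.6).

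**Figure D5:**
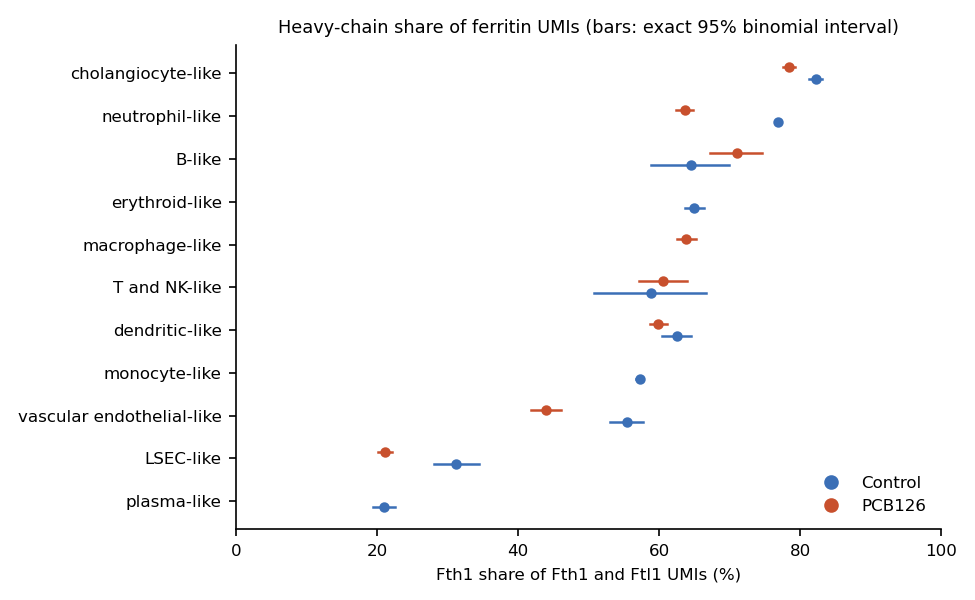
Fth1 share (%) of the summed Fth1 and Ftl1 UMIs by class, Control in blue and PCB126 in orange, with exact 95% binomial intervals. The share runs from 20.9% in Control plasma-like cells to 82.3% in Control cholangiocyte-like cells, and in LSEC-like cells it is 31.2% in Control and 21.0% in PCB126.

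Over the described classes of at least 15 cells in Control, Ftl1 was highest in monocyte-like (3904 CPM), neutrophil-like (3315), erythroid-like (2476), plasma-like (1513) and dendritic-like cells (1201), then cholangiocyte-like (939), vascular endothelial-like (852), LSEC-like (625), B-like (491) and T and NK-like cells (445). Intervals overlapped between cholangiocyte-like and vascular endothelial-like, between LSEC-like and B-like, and between B-like and T and NK-like cells. In PCB126, macrophage-like cells had 5039 CPM of Ftl1 and 8892 CPM of Fth1. The 6 macrophage-like cells of Control had 6225 and 7467 CPM, and its 7 stellate-like cells had 5599 CPM of Fth1. Among the classes of at least 15 cells, Fth1 in Control ran from neutrophil-like cells (10995 CPM) through monocyte-like (5225), erythroid-like (4595), cholangiocyte-like (4353), dendritic-like (1999), vascular endothelial-like (1058), B-like (893), T and NK-like (637) and plasma-like cells (400.4) to LSEC-like cells at 284 CPM, the lowest. Here the erythroid-like and cholangiocyte-like intervals overlapped, and that of B-like cells overlapped both neighbours. Across LSEC-like cells, Mt1 and Ftl1 had a rho of 0.283 over 150 Control cells and 0.547 over 472 PCB126 cells. In cholangiocyte-like cells it was 0.046 over 66 and 0.032 over 85 cells.

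Slc40a1, ferroportin, had most of its UMIs in LSEC-like, neutrophil-like and cholangiocyte-like cells. In LSEC-like cells it had 204 and 703 UMIs, 220.3 and 256 CPM, a ratio of 1.16 (0.992 to 1.36), so a difference beyond counting error was not detectable. With cells of at most 10% mitochondrial UMIs gated anew (78 Control and 81 PCB126 cells) its log2 ratio was 0.73, past the fold. A UMI was seen in 60.7% and 63.6% of cells (20.1% and 18.1% thinned). By zone the Slc40a1 ratio was 1.30 (1.03 to 1.65) in pericentral and 1.03 (0.823 to 1.29) in periportal cells. By mitochondrial share it was 1.43 (1.08 to 1.92) in the main-gate cells with at most 10% and 1.01 (0.831 to 1.24) in those above. Over the whole class the ferritin chains were higher, Fth1 only with doublets removed, beside a ferroportin level close to that of Control. In vascular endothelial-like cells the ratio was 0.868 (0.518 to 1.44), on 37 and 30 UMIs.

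In neutrophil-like cells Slc40a1 had 347 and 97 UMIs, 131 and 271 CPM, a ratio of 2.06 (1.63 to 2.59, log2 1.05), 95th of 2576 genes. A UMI was seen in 35.0% of Control and 56.8% of PCB126 cells, 10.8% (8.41 to 13.6) and 21.0% (12.7 to 31.5) after thinning. LSEC markers summed to 66.9 and 190 CPM in these cells (11 of 12 seen in each library, Stab2 at 0 in Control and Clec1b at 0 in PCB126). That is 0.604% and 1.47% of their level in LSEC-like cells, a share that would bring 1.33 and 3.75 CPM of Slc40a1. The part of LSEC-like RNA in the Slc40a1 ratio was not tested. The ratio was 1.81 (0.741 to 3.85) in granule-gene cells, 2.05 (1.53 to 2.73) in mature cells and 1.69 (1.02 to 2.68) in cytokine-gene cells, so its direction was shared by the 3 subsets, with a wide interval in the first. Neutrophil-like cells had more mitochondrial UMIs in PCB126 (median 13.1% against 7.67%). In cells of at most 10% mitochondrial UMIs, gated anew to 419 Control and 24 PCB126 cells, the log2 ratio was 0.91. Over the 13 alternatives the log2 ratio stayed between 0.88 and 1.25.

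In cholangiocyte-like cells Slc40a1 had 103 and 89 UMIs, 83.0 and 52.7 CPM, a ratio of 0.635 (0.472 to 0.851, log2 -0.65). The fold was just past the limit, and in 2 of 12 alternatives it was not, with the smallest difference at log2 -0.47 in cells of at most 10% mitochondrial UMIs. A UMI was seen in 66.7% and 62.4% of cells (15.2% and 9.41% thinned). Ferroportin UMIs were few or missing in mononuclear leukocytes: 5 in 418 Control monocyte-like cells, 5 in 34 PCB126 macrophage-like cells, 1 in 58 Control plasma-like cells, and 0 in the 45 Control and 118 PCB126 dendritic-like cells. The 6 Control macrophage-like cells had 4 UMIs, 46.9 CPM (12.8 to 120), too few to settle the level of that class. The dendritic-like 0 allows up to 4.21 CPM in Control and 1.66 CPM in PCB126 (5.18 and 2.05 CPM by the exact interval). Erythroid-like cells of Control, a mixed class, had 30 UMIs, 45.0 CPM. In order, the Control levels of the described classes of at least 15 cells were led by LSEC-like, neutrophil-like, cholangiocyte-like, erythroid-like and vascular endothelial-like, of which only the last pair overlapped. In PCB126 the neutrophil-like (271 CPM) and LSEC-like (256 CPM) intervals overlapped at the top.

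Tfrc, the transferrin receptor, was low in the described classes of at least 15 cells. Over all kept cells it had 257 UMIs in Control and 115 in PCB126, 18.7 and 11.6 CPM. In LSEC-like cells it had 1 and 4 UMIs. In vascular endothelial-like cells it had 0 in both libraries, which allows up to 3.19 and 3.41 CPM (3.92 and 4.20 CPM by the exact interval). In neutrophil-like cells it had 55 and 9 UMIs (ratio 1.21, 0.525 to 2.46) and in cholangiocyte-like cells 21 and 29 (1.01, 0.559 to 1.87). A difference between the libraries was therefore not detectable at this depth in any of the 4 classes. Among the described classes of at least 15 cells, Control levels were highest in T and NK-like (54.8 CPM), B-like (42.1), dendritic-like (39.3) and erythroid-like cells (28.5). Their intervals overlapped, on 8, 9, 28 and 19 UMIs. Smaller classes held more: 1 Control cell gated as basophil or mast had 21 of the 257 UMIs. The 5 PCB126 plasmacytoid dendritic-like cells had 5 UMIs, 84.0 CPM (27.3 to 196). In dendritic-like cells the level was 39.3 CPM in Control (28 UMIs) and 20.0 CPM in PCB126 (36 UMIs).

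The wider pathway was read from 7 lists of iron, zinc and heme genes, of which 51 besides the members were in the deposited symbols. In LSEC-like cells 34 had at least 20 UMIs: 5 were higher, 6 lower and 23 neither, with a median log2 ratio of -0.14. Of all 9075 genes with at least 20 UMIs there, 8.37% were higher and 7.16% lower, with a median of 0.02. By the end of the interval nearest to 1, the higher ones were led by Bmp2 (937 and 5463 UMIs, ratio 1.96, 1.83 to 2.11) and Bmp6 (97 and 578 UMIs, 2.01, 1.62 to 2.52), the endothelial ligands of the hepcidin pathway. Blvrb, a biliverdin reductase named after its values were seen, had a ratio above both (51 and 321 UMIs, 2.12, 1.57 to 2.91). The lower ones were led by Hp, which encodes haptoglobin (74 and 14 UMIs, ratio 0.0637, 0.0332 to 0.114), and Hpx, which encodes hemopexin (43 and 11 UMIs, 0.0862, 0.0401 to 0.170), both products of hepatocytes. Hepatocyte markers were also lower there (10 of 12 seen in Control, with Cps1 and Pck1 at 0, and 12 of 12 in PCB126), and their part in the Hp and Hpx values was not tested. The iron uptake list had 3 of 5 measured genes lower and none higher: Trf, transferrin, with 50 and 25 UMIs, Slc11a2, an iron importer, with 21 and 18, and Mcoln1, a lysosomal channel, with 29 and 43, named after their values were seen. Each had fewer than 100 UMIs over both libraries. The part of hepatocyte RNA in the Trf value (54.0 and 9.10 CPM) was not tested.

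In vascular endothelial-like cells 32 list genes were measured, with 4 higher and 2 lower and a median log2 ratio of -0.23, against 3.84% higher, 8.32% lower and a median of -0.09 over all 7913 genes with at least 20 UMIs. By the same ranking Bmp2 led the higher ones (189 and 312 UMIs, 1.77, 1.47 to 2.13), with Iscu, a scaffold for iron-sulfur clusters (96 and 146 UMIs, 1.63, 1.25 to 2.13). Hpx had 32 and 0 UMIs, and Hp 47 and 4. With 3 counts put in place of the 0, Hpx would be 9.97-fold lower, a value that leaves out counting error. The 12 hepatocyte markers summed to 216 and 105 CPM there, with 10 seen in each library and Cps1 at 0 in both, and their part was not tested. In neutrophil-like cells 21 were measured, with 2 higher and 5 lower and a median of -0.01, against 10.7%, 5.94% and 0.15 over all 5855 genes with at least 20 UMIs. Iscu (224 and 51 UMIs, 1.68, 1.21 to 2.29) and Hmox1, the heme-degrading enzyme that frees iron (286 and 59 UMIs, 1.52, 1.13 to 2.02), were higher. Hpx (241 and 3 UMIs) and Cp, the ferroxidase ceruloplasmin (57 and 0 UMIs), led the lower ones. With 3 counts put in place of the 0, Cp would be 2.57-fold lower, again without counting error. The hepatocyte markers summed to 422 and 97.7 CPM there (10 and 7 of 12 seen, Cps1 and Pck1 at 0 in both), and their part was not tested.

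In cholangiocyte-like cells 39 were measured, with 1 higher and 6 lower and a median of -0.08, against 4.65%, 3.42% and 0.08 over all 9838 genes with at least 20 UMIs. Blvra, a biliverdin reductase, was the 1 higher gene (16 and 40 UMIs, 1.84, 1.01 to 3.51). Hamp, which encodes hepcidin, the hormone that closes ferroportin, had 243 UMIs in 25 Control cells and 13 UMIs in 4 PCB126 cells, a ratio of 0.0393 (0.0206 to 0.0685). Hamp is made mainly by hepatocytes, whose markers had sums of 7108 and 6186 CPM in this class, and their part in the Hamp ratio was not tested. Alas2, the erythroid heme synthesis enzyme, had 31 and 0 UMIs, beside the erythroid marker sums given above. The genes of iron sensing and ferritin turnover did not pass the fold in LSEC-like cells: Aco1 and Ireb2, which encode the iron regulatory proteins, had ratios of 0.696 (0.365 to 1.39) and 0.770 (0.569 to 1.05), and Ncoa4, the receptor that sends ferritin to lysosomes, 0.924 (0.606 to 1.44). Hmox1 was 0.979 (0.688 to 1.42) there. None of these 4 was higher or lower by the rule in vascular endothelial-like or cholangiocyte-like cells where they had 20 UMIs, and in neutrophil-like cells Hmox1 was higher. Hmox1 in vascular endothelial-like cells had 23 and 10 UMIs, a ratio of 0.465 with an interval that held 1 (0.198 to 1.02).

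The genes most like each member in level were sought among 12161 genes over 14 combinations of class and library with at least 50 cells, by the Pearson correlation of log2(CPM + 10). The combinations share 2 libraries and related cell types, so the coefficients only describe. Mt1 was most like Rab3a (0.915), Mt2 (0.911) and Rhobtb1 (0.880). Mt2 was most like Fignl2 (0.956), Phldb1 (0.948) and Mcc (0.943). Ftl1 was most like Eif4ebp1 (0.907), Tnfaip2 (0.901) and Metrnl (0.883), and Fth1 like Prdx5 (0.945), Snx10 (0.939) and Gng5 (0.939). Slc40a1 was most like Rell1 (0.9501), Ccdc126 (0.925) and Igf1r (0.909), and Tfrc like Fuca2 (0.905), Impa2 (0.903) and Tuba1c (0.880). Mt1 was the only member with another member among its 3 nearest genes.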

How the data were processed

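The authors deposited 1 matrix of raw UMI counts per library, made by Cell Ranger 6.0.0 per the file headers, with other files that list genes and barcodes. Per the submitters' processing notes, the tools were Cell Ranger 6.1.1 and Seurat 4.0.1. The build of the genome and its annotation: not given in the sources used here. Barcodes with at least 500 UMIs, at least 250 genes and at most 20% mitochondrial UMIs were kept (1858 and 1138 after removing the 28 and 11 highest Scrublet scores, 0.8% per 1000 barcodes, scanpy 1.11.5). Each cell took the type with the highest mean z-score of its markers, with at least 3 markers seen and a margin of 0.25. Counts were summed per class and library. A ratio has an exact conditional binomial interval (scipy 1.17.1), and log2 ratios add 0.5 counts. The ratio step was tested on simulated data.

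The members and lists were chosen with earlier results of these data known, and the gate's score and margin, the subsets and 4 added alternatives were set after the data were seen. Named genes are the members, per class the list genes with the bound nearest to 1 ranked first or next in each direction, and Hmox1, Aco1, Ireb2 and Ncoa4. Of listed symbols Flvcr1 and the marker Ahsp had no match, and Hjv was matched as Hfe2. Of 34244 gene IDs, 34049 were in GENCODE M21.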

Additional observations from a re-analysis of the deposited data

Results flagged for a closer look

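Opposite directions between classes were seen for 3 genes, and the difference itself was not tested, since each class has 1 library per group. The log2 ratio of PCB126 to Control for Mt1 was 1.39 in LSEC-like and -1.15 in cholangiocyte-like cells. For Mt2 it was 1.09 and -1.14. For Slc40a1 it was 1.05 in neutrophil-like and -0.65 in cholangiocyte-like cells.

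A signal also stood in barcodes that the main comparisons left out, the 412 Control and 1698 PCB126 barcodes with more than 20% mitochondrial UMIs and no class. There the log2 ratio was 1.60 for Mt1 (116 and 2069 UMIs), 1.14 for Mt2 (46 and 602), 0.87 for Ftl1 (604 and 6499) and 1.21 for Slc40a1 (43 and 591). Fth1 had a ratio of 0.974 (0.909 to 1.04) and Tfrc 15 UMIs in each library, a ratio of 0.170 (0.0775 to 0.374). These barcodes mix cell types, and the mix was not matched between the libraries. With up to 50% mitochondrial UMIs and cells gated anew, the LSEC-like class held 152 Control and 960 PCB126 cells. In the main setting it held 150 and 472, so the added LSEC-like cells were nearly all PCB126. The part of this mix in the ratios was not tested.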

How the results depend on the processing

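Over 18 alternatives, 9 of the 10 ratios past 1.5 times kept their side of 0 and 7 stayed past the fold in every alternative run for them; of all 23 ratios, 7 moved by over 1.5 times. Fth1 in LSEC-like cells turned to log2 -0.11 with doublets kept, where 3 added Control cells carried 252 Fth1 UMIs. Ftl1 in vascular endothelial-like cells and Slc40a1 in cholangiocyte-like cells lost the fold in the settings named above. The count of members higher in vascular endothelial-like cells, 1, was 2 with up to 50% mitochondrial UMIs and with no gate margin, 3 with Leiden clusters, and 0 with its subsets weighed equally. Members lower went from 0 to 1 in vascular endothelial-like cells with the mean of per-cell CPM and in neutrophil-like cells with the shallow-barcode profile subtracted. With at least 100 UMIs required, so that fewer genes were counted, list genes lower went from 6 to 0 in LSEC-like, from 2 to 0 in vascular endothelial-like and from 6 to 3 in cholangiocyte-like cells, and list genes higher from 1 to 0 in the last. With the median-of-ratios size factor, list genes higher were 1 in neutrophil-like and 0 in cholangiocyte-like cells. Where no reason is given, the cause was not tested. Unthinned shares of cells lay outside the thinned interval in 38 of 40 cases. No paired analysis was possible because each group has 1 library, and no library could be left out. In the classes for which ratios are given, Tfrc had too few UMIs to show a difference, and so did the metallothioneins in neutrophil-like cells.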

Other observations

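LSEC-like cells had the lowest Fth1 level of the Control classes with at least 15 cells (284 CPM) and a ferroportin level of 220.3 CPM, and plasma-like cells had little of either (400.4 and 0.743 CPM). In Control plasma-like cells the light chain made up most of the ferritin UMIs, 2036 against 539. The 191 Mt1 UMIs of these 58 cells lay in 29.3% of them.

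The light-chain part of ferritin was larger in PCB126 dendritic-like cells as well, where Fth1 made up 62.5% (60.5 to 64.5) of the pair in Control and 59.9% (58.7 to 61.1) in PCB126, with intervals that overlapped. In B-like cells the values ran the other way, 64.5% (58.8 to 70.0) and 71.0% (67.2 to 74.6), on few cells (21 and 55), also with overlap. Cells without a class had 122 and 356 CPM of Mt1.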
